A study of Mus musculus with 18 samples.

Results

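Gene expression in the renal cortex of male CD1 mice, an outbred strain, was compared between early and late arrays. The 3 early arrays ran from the end of the first postnatal week to day 10 (P6, P8 and P10). The 3 late ones ran from about weaning to adulthood (P20, P30 and P90). These 6 arrays belong to a series of 18, which covers cortex and medulla at the same 9 ages from P0 to P90. How cortex was parted from medulla is not given in the sources used here, no treatment or engineered allele is given in the labels, and the RNA of 4 animals was pooled for every array, so each age is a single Illumina bead array with no repeat. The 3 ages of a period served as its replicates. The spread within a period therefore holds change with age as well as measurement error, and p-values measure the spread between ages and not between animals.

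The mouse kidney goes on making nephrons for some days after birth. When that stops, the tubules lengthen, cell division declines, and the cortex comes to consist mostly of proximal tubule, the segment that recovers glucose, amino acids, phosphate and bicarbonate from the filtrate and clears organic acids and drugs. Between P10 and P90 the pups also pass from milk to solid food, and males pass through puberty, which in the mouse kidney switches on a set of androgen-responsive genes in the proximal tubule. The early arrays of this comparison lie before weaning, P20 lies near it, and P30 and P90 lie after it. P20 also lies before puberty.

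All values are the authors' normalised log2 intensities, so differences are log2 differences, and a fold is 2 raised to that difference. Whether the deposited scale is plain log2 or a variance-stabilised form of it is not given in the sources used here, and folds of dim genes are understated if it is the latter. A gene was tested if a probe for it read above its array's 75th percentile, 8.31 to 8.37 on these 6 arrays, on at least 3 of them. That left 7813 genes. In each sentence with 6 values, the order is P6, P8 and P10, then P20, P30 and P90.

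The cortex label was checked against the medulla arrays of the same 6 ages. Aqp2, the water channel of the collecting duct, read 9.35, 9.47 and 9.56, then 9.43, 8.98 and 9.11 in cortex and 11.54, 11.16 and 11.88, then 12.59, 11.21 and 11.35 in medulla, higher in medulla at every age. Nphs1, the nephrin gene of the glomerulus, which lies in the cortex, read 8.93, 8.86 and 8.91, then 8.78, 8.75 and 8.55 in cortex and 8.43, 8.47 and 8.39, then 8.34, 8.39 and 8.23 in medulla, higher in cortex at every age. Slc34a1, the main phosphate transporter of the proximal tubule, read 14.22, 14.05 and 14.36, then 14.57, 14.62 and 14.81 in cortex and 13.27, 13.37 and 13.24, then 13.81, 14.53 and 14.51 in medulla, so its level was high in both regions. Values ran from 7.01 to 15.76 over the arrays. Albumin (Alb) was at or below the level filter on all 6 arrays and in the adrenal list 0 of 9 genes on the array were measured. Correlation over genes between arrays was 0.984 to 0.992 among P6, P8 and P10, and 0.954 to 0.984 among P20, P30 and P90. Between periods it was 0.862 to 0.952, with the highest value for P10 and P20. The share of tested genes above the filter was 91.2% to 95.4% per array.

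Of the 7813 genes, 3217 (41.2%) were called at a Benjamini-Hochberg adjusted p under 0.05 in limma, 1415 (18.1%) higher and 1802 (23.1%) lower at P20 to P90. The counts for each gene list below are to be read against these shares. The median difference over all genes was -0.02. With each array scaled to a common median, 1722 genes were called higher and 1480 lower, so that 53.8% of calls were higher in place of 44.0%. The 3 late arrays all lay above the 3 early ones in 1935 genes (24.8%) and all below in 2400 (30.7%). A call with a difference of at least 2-fold was made for 186 genes higher (2.38%) and 199 lower (2.55%), and at least 8-fold for 11 higher and 2 lower. In 106 genes called higher, all 3 early arrays lay at or below the filter, and in 145 called lower all 3 late arrays did, so their size is a lower bound and is written as "at least". Such genes passed the filter only through the period in which they were high, so the filter all but fixed their direction. A second measured probe of a called gene moved in the same direction in 737 of 874 cases (84.3%). With no P30 array the count of calls was 1958 and with no P8 array 2013.

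The largest rises were in enzymes and a peptide hormone. Dnase1, a secreted enzyme that cuts DNA, read 8.84, 9.29 and 9.81, then 13.50, 13.96 and 14.19. All 3 late arrays were far above the 3 early ones, and P20 already held 85.7% of the distance from the P6 to P10 mean to P90. The rise was 4.57 ± 0.26 (SE, n = 3 and 3), 23.7-fold, with adjusted p = 0.00033. Ces1d, a carboxylesterase that hydrolyses lipid and drug esters, read 8.79, 9.36 and 9.69, then 13.51, 13.38 and 13.39. Its late values differed from one another by far less than from any early value, and the rise was 17.7-fold (adjusted p = 0.00026). Guca2b encodes uroguanylin, a peptide that activates guanylate cyclase C and promotes sodium loss in the urine. It read 8.56, 8.40 and 8.37, then 11.64, 13.30 and 12.98, a rise of 18.4-fold (adjusted p = 0.000871), with the 3 early arrays close to the filter. Treh, the brush-border trehalase that splits the disaccharide trehalose, read 8.51, 8.50 and 8.78, then 11.22, 12.34 and 12.47 and rose 10.7-fold (adjusted p = 0.000871).

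Cyp2e1, a cytochrome P450 that oxidises ethanol and small solvents, read 8.75, 8.89 and 9.13, then 11.86, 14.25 and 14.45. Its P20 array lay between the early arrays and the pair at P30 and P90, at 53.1% of the final rise. The mean rise was 4.59 ± 0.62, or 24.1-fold (adjusted p = 0.00216). The probe named Cyp4b1-ps2, a P450 annotated as a pseudogene, had the largest difference of all genes. It read 8.35, 8.65 and 8.52, then 11.86, 14.30 and 14.92, 36.5-fold higher at the late ages (adjusted p = 0.00214), and signal from close P450 relatives on this probe cannot be told apart. Nat8, which acetylates cysteine conjugates in the last step of mercapturic acid formation, read 8.69, 8.30 and 8.28, then 10.46, 12.68 and 13.44 and rose 13.6-fold (adjusted p = 0.00478). Ugt3a2, a UDP-glycosyltransferase, rose 7.29-fold. Eci3, which isomerises enoyl-CoA in the breakdown of unsaturated fatty acids, rose 6.01-fold. Egf, the epidermal growth factor precursor made in the distal nephron, read 8.82, 9.59 and 10.48, then 12.28, 11.95 and 12.28 and rose 5.82-fold (adjusted p = 0.00258), but a second measured probe for it differed by only 0.11.

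Some large rises came mostly after P20. The naming rule took in the largest differences between P90 and P20, so a low P20 value is in part built into this choice. Inmt, an N-methyltransferase of indoleamines and thioethers, read 8.31, 8.27 and 8.34, then 8.88, 13.57 and 14.59. Its P20 array was close to the early arrays and its P30 and P90 arrays far above, so that P20 held 9.14% of the rise. The mean rise was 16.4-fold with an SE of 1.28 on the log2 scale (adjusted p = 0.0395). Eri2, named for an exoribonuclease family, read 8.21, 8.31 and 8.34, then 8.78, 13.10 and 13.22, with the same step between P20 and P30, and was at least 10.3-fold higher at the late ages (adjusted p = 0.0375). Cyp2j13, an arachidonic-acid P450 subfamily member, read 8.21, 8.13 and 8.04, then 9.03, 12.30 and 12.85 and was at least 8.35-fold higher (adjusted p = 0.0217). Ces1f, a second carboxylesterase, read 7.75, 7.74 and 7.93, then 8.82, 12.002 and 12.14 and was at least 6.32-fold higher (adjusted p = 0.0172). Cyp2a4, a steroid hydroxylase, read 8.19, 8.21 and 8.19, then 9.29, 10.73 and 12.52, rising at each later age, and was at least 5.73-fold higher (adjusted p = 0.0194).

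The calls on these 5 genes depended on single arrays. The call on Inmt was lost without any 1 of P6, P8, P10, P30 or P90 (adjusted p 0.0838 to 0.129), and that on Eri2 without any 1 of P6, P8, P10, P30 or P90 (adjusted p 0.0877 to 0.124). The call on Cyp2j13 was lost without any 1 of P6, P8, P10 or P30 (adjusted p 0.0631 to 0.0788). The same held for Ces1f without any 1 of P6, P8, P10 or P30 (adjusted p 0.0515 to 0.0641), and for Cyp2a4 without any 1 of P6, P8, P10 or P30 (adjusted p 0.0575 to 0.0633). Without P20, Inmt stood 5.77 above the early arrays on the log2 scale. Members of the Cyp2, Ces1 and Ugt families are similar in sequence, and cross-hybridisation between relatives was not tested.

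**Figure D1:**
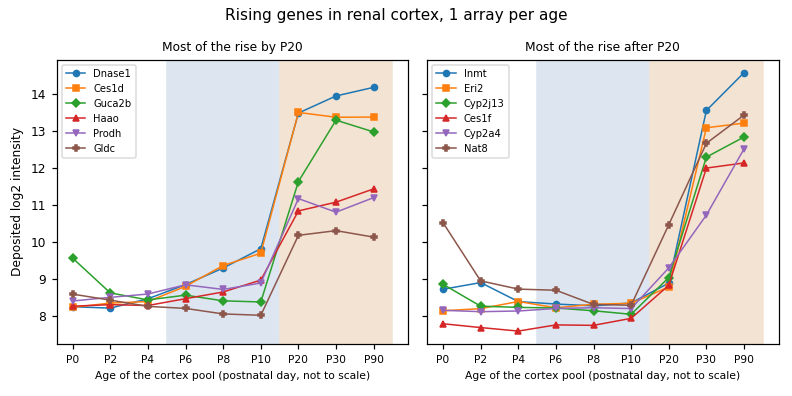
Deposited log2 intensity (vertical axis) at each of the 9 ages (horizontal axis, equally spaced, not to scale) for 6 genes that had made most of their rise by P20 (left) and 6 that made most of it after P20 (right), 1 array per point; blue shading marks P6 to P10 and orange shading P20 to P90. Dnase1 reads 13.50 at P20 and 14.19 at P90, whereas Inmt reads 8.88 at P20 and 14.59 at P90.

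Across the 186 genes called at least 2-fold higher, the P20 array held a median of 59.6% of the rise from the P6 to P10 mean to P90, with quartiles of 39.8% and 81.5%. In 69 of the 186 it held under 50%, in 19 under 25%, and in 24 it was at or above the P90 level. Across the 199 genes called at least 2-fold lower, the median was 65.8%, with quartiles of 51.9% and 75.9%, and 2 genes were under 25%. These shares are descriptions, since each age is 1 array.

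Solute transporters of the proximal tubule rose as a group. Of 30 listed genes, 30 had a probe and 28 passed the level filter, here called measured. Of these, 16 were called higher and 1 lower, against 18.1% and 23.1% of all genes, and the median difference was 0.50 against -0.02. Slc22a12, the urate exchanger, had the largest rise. It read 9.79, 9.66 and 9.74, then 11.50, 12.39 and 12.62, with every late array above every early one, and rose 2.44 ± 0.26, 5.43-fold (adjusted p = 0.00114). Slc5a10, a sodium-coupled mannose and fructose carrier, read 9.98, 9.67 and 9.49, then 10.79, 11.99 and 11.99 and rose 3.68-fold (adjusted p = 0.00416). Slc17a3, an organic anion and urate carrier, read 9.23, 9.29 and 8.91, then 10.20, 11.18 and 11.30 and rose 3.35-fold (adjusted p = 0.00347). In both, P20 lay between the early arrays and the later pair.

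Slc6a20b, an imino acid transporter, read 9.49, 9.44 and 9.49, then 10.54, 10.75 and 10.81 and rose 2.34-fold (adjusted p = 0.00045). Slc13a3, the basolateral dicarboxylate carrier, read 10.19, 10.55 and 10.64, then 11.57, 11.39 and 11.87 and rose 2.22-fold (adjusted p = 0.00222). The neutral amino acid carrier Slc6a19 rose by 1.03 on the log2 scale, the phosphate and anion carrier Slc17a1 by 1.10, and the lactate carrier Slc5a12 by 0.73 (adjusted p = 0.0449), a call lost without any 1 of P6, P8, P10, P20 or P30 (adjusted p 0.0558 to 0.134). Slc34a1 rose 1.37-fold (adjusted p = 0.0124), and the water channel Aqp1, which read 12.46, 12.47 and 12.62, then 12.88, 12.78 and 13.21, rose 1.35-fold (adjusted p = 0.0229), a call lost without P6 or P8 (adjusted p 0.0752 to 0.0804). Slc20a2, a ubiquitous phosphate carrier, was the member called lower, at -0.48. The glucose carrier Slc5a2, SGLT2, read 11.61, 12.71 and 12.09, then 12.78, 12.85 and 12.07 and was not called (difference 0.43, adjusted p = 0.288), its early and late arrays overlapping. With single arrays left out, between 11 and 15 members were called higher.

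The promoter of Slc34a1 is shown as that of a group member with letters of both hepatocyte nuclear factor motifs searched. It is chr13:55399398-55399697 on the plus strand of GRCm38.p6 (RefSeq), around the start of the gene, with the capitals marking GTTAAT (HNF1) and CAAAGTC (HNF4) on either strand.
Slc34a1: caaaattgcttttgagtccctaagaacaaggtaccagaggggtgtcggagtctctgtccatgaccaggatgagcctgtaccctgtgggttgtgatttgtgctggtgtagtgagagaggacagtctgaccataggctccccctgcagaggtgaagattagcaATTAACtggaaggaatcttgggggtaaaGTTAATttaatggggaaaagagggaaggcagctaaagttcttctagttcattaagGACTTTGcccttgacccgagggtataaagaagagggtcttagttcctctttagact
Among 36 promoters of 25 genes in the transporter list, 13.9% held GTTAAT and 8.33% CAAAGTC on either strand, against 7.1% and 4.44% of 32851 promoters of all genes. The transporter shares are of 5 and 3 promoters. The same 36 promoters held TTTGAA in 25% and E2F in 8.33%, against 17.9% and 6.81% of all promoters. CCAAT was in 22.2% of them, against 37.4%. These further motifs are described below with the cell cycle genes. In the list of organic ion and drug transporters, 10.5% of 19 promoters held GTTAAT and 0 held CAAAGTC, and in the brush border list 8.7% and 21.7% of 23. Among 15 promoters of 11 genes with the 15 largest rises the shares were 26.7% and 20%, of 4 and 3 promoters. The HNF1 and HNF4 motifs as searched can overlap by at most a base, and a match is a description of the sequence, not a binding site. Hnf4a itself, a nuclear receptor of proximal tubule and liver, read 11.76, 11.72 and 12.02, then 12.84, 13.04 and 12.84. All 3 late arrays were above the early ones by a similar amount, a rise of 2.11-fold (adjusted p = 0.001).

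Carriers that secrete organic ions and drugs moved the same way. Of 11 measured members, 7 were called higher and 1 lower, with a median of 0.63. In 2 of the 7, all early arrays lay at or below the filter. Slc22a6, the basolateral organic anion transporter OAT1, read 11.61, 11.84 and 11.46, then 12.40, 13.44 and 13.65, and rose 2.88-fold (adjusted p = 0.00721). Slc22a2, the organic cation transporter OCT2, read 10.16, 10.41 and 9.91, then 11.08, 11.59 and 11.82 and rose 2.53-fold (adjusted p = 0.00291). Slc47a1, the apical exchanger MATE1 that passes cations into the urine, read 9.92, 9.89 and 9.63, then 10.69, 10.97 and 11.36 and rose 2.28-fold (adjusted p = 0.00251). In these 3 genes the P20 array lay below P30, and P30 below P90. Slc22a18 rose 2.11-fold. Slc22a4, which was at or below the filter on all early arrays, rose at least 1.51-fold (adjusted p = 0.00459). The member called lower, Slc22a19, read 9.10, 8.74 and 8.64, then 8.45, 8.57 and 8.34, a difference of -0.37 (adjusted p = 0.0496), and that call was lost without any 1 of P6, P8, P20, P30 or P90 (adjusted p 0.0652 to 0.117). Its difference was -0.24 without P6. Slc22a8, the organic anion transporter OAT3, differed by -0.34 and was not called (adjusted p = 0.14).

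The brush border did not move as one. Of 13 measured peptidases and hydrolases, 5 were called higher and 2 lower, against 18.1% and 23.1% of all genes. Treh and Mep1a, a subunit of the metalloprotease meprin, were higher. Mep1a read 10.45, 10.20 and 10.81, then 11.30, 11.64 and 12.04 and rose 2.25-fold (adjusted p = 0.0054). Alpl, alkaline phosphatase, read 10.48, 11.10 and 11.48, then 12.42, 12.18 and 11.84, and was highest at P20, with a mean rise of 2.19-fold (adjusted p = 0.0115). Dpp4, the dipeptidyl peptidase that trims proline-containing peptides, read 12.58, 12.48 and 12.30, then 11.41, 10.90 and 10.20, a fall at each later age, and was 3.06-fold lower (adjusted p = 0.00413). Xpnpep2, aminopeptidase P, read 11.60, 11.53 and 11.55, then 10.81, 9.83 and 9.01 and was 3.19-fold lower (adjusted p = 0.0129), with P20 at 29.3% of its fall. Anpep, Enpep and Dpep1 differed by -0.20, 0.11 and -0.15 and were not called. Among 8 measured genes of receptor-mediated endocytosis, the 1 call was on Rab11a, a recycling GTPase that was 1.64-fold lower (adjusted p = 0.00125). A second probe for Rab11a differed by -0.26. Lrp2 and Cubn were not analysed here.

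Many enzymes that break down amino acids rose. Of 28 measured, 15 were called higher and 2 lower, with a median of 0.65. In 3 of the 15, all early arrays lay at or below the filter. Haao, which acts in the kynurenine pathway of tryptophan breakdown, read 8.46, 8.64 and 8.96, then 10.84, 11.08 and 11.44. The late arrays were all well above the early ones, and the rise was 2.43 ± 0.18, 5.39-fold (adjusted p = 0.000463). Prodh, the first enzyme of proline oxidation, read 8.84, 8.71 and 8.88, then 11.17, 10.81 and 11.20 and rose 4.76-fold (adjusted p = 0.00026), with P20 at 98.9% of the rise. Gldc, the decarboxylase of the glycine cleavage system, read 8.20, 8.05 and 8.01, then 10.18, 10.31 and 10.13 and was at least 3.67-fold higher (adjusted p = 0.000121), the 3 late arrays lying within a narrow band.

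Bhmt2, a methyltransferase that makes methionine, read 9.88, 9.68 and 9.85, then 10.69, 11.31 and 11.58 and rose 2.62-fold (adjusted p = 0.00285). Hao2, a peroxisomal hydroxyacid oxidase, read 10.37, 10.40 and 10.63, then 12.29, 11.76 and 11.33, with the highest value at P20, and rose 2.51-fold (adjusted p = 0.00406). The tyrosine breakdown enzymes Hgd and Fah rose by 1.21 and 0.79, and the kynurenine enzymes Kmo and Afmid by 0.95 and 1.27. Hpd, which acts before Hgd and was at or below the filter on all early arrays, was at least 1.96-fold higher (adjusted p = 0.0409), a call lost without any 1 of P6, P8, P10, P20 or P90 (adjusted p 0.0663 to 0.109). The members called lower were Prodh2, which oxidises hydroxyproline, at -0.89, and Asl of the urea cycle and arginine synthesis, at -0.55. The call on Prodh2 was lost without any 1 of P6, P8, P10, P30 or P90 (adjusted p 0.0548 to 0.0867) and that on Asl without any 1 of P8, P10 or P30 (adjusted p 0.0701 to 0.085), and other probes for Asl differed by -0.17 to 0.35. The median called member of this list had reached 78.2% of its change at P20, against 72.7% over all genes called higher and 68.9% over all called lower.

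Phase I enzymes of drug and steroid metabolism add or expose reactive groups. Of 16 measured members, 9 were called higher and 0 lower, with a median difference of 1.01. In 3 of the 9, all early arrays lay at or below the filter, so these passed it only through their late arrays. Besides Cyp2e1, Ces1d, Ces1f and Cyp2a4, the 9 hold Ephx2, the soluble epoxide hydrolase. It read 9.94, 9.93 and 9.97, then 11.30, 12.29 and 12.63 and rose 4.36-fold (adjusted p = 0.00239). Its P20 array lay midway. Adh1, alcohol dehydrogenase, rose by 1.53 (adjusted p = 0.0225), a call lost without any 1 of P6, P8, P10 or P30 (adjusted p 0.0652 to 0.0784). Leaving out any 1 of P30, P6, P8 and P10 lowered the count of rises to 5. Phase II enzymes, which conjugate such products, and antioxidant enzymes had 15 of 23 called higher and 2 lower (median 0.56), the latter 5 without P20. Sult1d1, a sulphotransferase, read 11.48, 11.15 and 11.30, then 12.66, 12.58 and 12.64, and rose 2.49-fold (adjusted p = 0.00045). Gsta4, a glutathione transferase acting on lipid aldehydes, went the other way. It read 11.46, 11.40 and 11.20, then 10.26, 9.53 and 9.68 and was 2.89-fold lower (adjusted p = 0.00158), and Mgst1 differed by -1.07. The superoxide dismutase Sod1 rose by 1.06 and the glutathione peroxidases Gpx1 and Gpx3 by 0.66 and 0.59, the last call lost without any 1 of P6, P8 or P90 (adjusted p 0.0531 to 0.0707).

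Rises in mitochondrial genes were small. Of 17 measured genes of the tricarboxylic acid cycle and its feeders, 10 were called higher and 1 lower (median 0.29). The list and its rises include Mdh1, the cytosolic malate dehydrogenase, which is not mitochondrial. It read 10.40, 10.35 and 10.49, then 11.39, 11.06 and 11.03 and rose 1.68-fold (adjusted p = 0.00263), highest at P20. The mitochondrial form, Mdh2, rose by 0.49. Idh3b, a subunit of isocitrate dehydrogenase, read 11.65, 11.66 and 11.84, then 12.30, 12.24 and 12.24 and rose 1.46-fold (adjusted p = 0.00254). Of 21 measured subunits of oxidative phosphorylation, 6 were called higher and 0 lower, but the median was 0.12. The largest rise was in Sdhd, a subunit of succinate dehydrogenase, which read 10.74, 10.74 and 10.84, then 11.54, 11.33 and 10.97, highest at P20, and rose 1.42-fold (adjusted p = 0.0232). Without P30 none of the 21 subunits was called, without P6 none was, and without P8 or P10 the count was 1 or 2. The cycle's count of rises was 3 without P30, 4 without P8 and 6 without P6 or P10. The call on Sdhd was lost without any 1 of P6, P8, P10 or P30 (adjusted p 0.0528 to 0.0789).

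Fatty acid oxidation and peroxisomal genes had 9 of 20 members called higher and 1 lower (median 0.23). In 2 of the 9, all early arrays lay at or below the filter. Acot12, an acetyl-CoA thioesterase, read 7.85, 8.08 and 7.99, then 8.81, 10.06 and 10.64, and was at least 2.84-fold higher (adjusted p = 0.00997). Ehhadh, the bifunctional enzyme of peroxisomal oxidation, read 10.20, 10.14 and 10.30, then 10.85, 11.73 and 11.59 and rose 2.26-fold (adjusted p = 0.00513). Both rose mostly after P20. Pank1, a kinase at the start of coenzyme A synthesis, read 9.11, 9.18 and 9.12, then 9.36, 10.62 and 10.94 and rose 2.25-fold (adjusted p = 0.0348), a call lost without any 1 of P6, P8, P10, P30 or P90 (adjusted p 0.0724 to 0.115). Fabp3, the fatty acid binding protein of heart, read 13.29, 13.18 and 12.98, then 12.35, 12.15 and 11.87 and was 2.03-fold lower (adjusted p = 0.00214). Without P30, and without P6, the list's count of rises was 5.

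Pck1, the rate-setting enzyme of gluconeogenesis, read 9.16, 9.31 and 9.78, then 10.74, 10.65 and 10.71 and rose 2.43-fold (adjusted p = 0.0015), complete by P20. Khk, ketohexokinase, which starts fructose breakdown, read 11.63, 12.10 and 12.32, then 12.98, 13.25 and 13.43 and rose 2.31-fold (adjusted p = 0.00329), and Slc37a4, the glucose 6-phosphate carrier, rose 1.79-fold. Of 7 measured genes in this list, 3 were called higher and 1, Pcx, lower. Of 12 measured glycolysis genes, 2 were called higher and 3 lower, near the 18.1% and 23.1% of all genes. Pkm, pyruvate kinase, read 11.88, 11.68 and 11.89, then 11.30, 10.81 and 10.59 and was 1.89-fold lower (adjusted p = 0.00607). Hk1, hexokinase 1, read 11.04, 11.10 and 10.94, then 10.52, 10.11 and 9.92 and was 1.8-fold lower (adjusted p = 0.00459), although a second probe for it differed by 0.02. Ldha, lactate dehydrogenase, and Tpi1 were the members called higher, at 0.41 and 0.34, the latter lost without any 1 of P6, P8, P10, P30 or P90 (adjusted p 0.0534 to 0.0789). With P20 left out, 6 glycolysis genes were called lower.

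Among 9 measured genes of ammonia production and acid-base transport, 5 were called higher and 2 lower, against 18.1% and 23.1% of all genes. Slc4a4, the basolateral sodium bicarbonate carrier, read 9.73, 9.59 and 9.95, then 10.53, 10.35 and 10.66 and rose 1.69-fold (adjusted p = 0.00335). Car4, a membrane-bound carbonic anhydrase, read 11.33, 11.05 and 10.98, then 11.69, 12.14 and 11.87 and rose 1.72-fold (adjusted p = 0.00492). Slc9a3, the sodium proton exchanger NHE3, rose 1.31-fold, a call lost without any 1 of P6, P10 or P30 (adjusted p 0.0563 to 0.0597). Glud1, glutamate dehydrogenase, read 12.99, 12.96 and 12.68, then 12.33, 12.24 and 12.16 and was 1.55-fold lower (adjusted p = 0.00353). The count of rises was 3 without P30.

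Genes known to respond to androgen in mouse kidney rose late. Of 10 measured members, 8 were called higher and 0 lower, with a median of 1.66. In 1 of the 8, all early arrays lay at or below the filter. The 8 called members had reached a median of 38.6% of their rise at P20, against 72.7% over all genes called higher. Those include many small rises. Over the 186 genes called at least 2-fold higher the median was 59.6%, with a lower quartile of 39.8%, close to the 38.6%. A low share was not particular to this list, as it was 50.45% in the phase I list. Hsd11b1, which regenerates active glucocorticoid, read 9.38, 9.64 and 9.91, then 11.07, 11.75 and 12.75 and rose 4.63-fold (adjusted p = 0.00437). Nudt19, a coenzyme A hydrolase, read 11.03, 10.89 and 11.08, then 12.15, 13.56 and 13.58, a step mostly after P20, and rose 4.26-fold (adjusted p = 0.00422). Kap, the kidney androgen-regulated protein, read 11.59, 12.16 and 12.80, then 13.10, 14.36 and 14.53. Its level had risen through the early arrays, and P20 lay only just above P10. The difference was 3.52-fold (adjusted p = 0.013), not called without P30 (adjusted p 0.0531).

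Timd2, a receptor for ferritin, read 8.39, 8.12 and 8.23, then 8.90, 10.24 and 10.95 and rose 3.44-fold (adjusted p = 0.0173), a call lost without any 1 of P8, P10 or P30 (adjusted p 0.0547 to 0.0637). The list's count of rises was 4 without P30 and 5 without P8. Of 6 measured genes known to be higher in female mouse kidney, 2 were called higher, Cyp2a4 and Slc22a7. Both were at or below the filter on all early arrays. Their median share at P20 was 31.1%, below that of the androgen list. Slc22a7, a basolateral organic anion carrier, read 8.18, 8.26 and 8.20, then 8.45, 8.71 and 8.84, at least 1.26-fold higher (adjusted p = 0.014), and was not called without P30 (adjusted p 0.055). Without P30 neither of the 2 was called. All arrays were of males, and hormone levels were not measured.

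Of 17 measured nuclear receptors and tubule transcription factors, 5 were called higher and 2 lower, the latter 4 without P20. Over all genes, 18.1% were called higher and 23.1% lower. Nr1h4, the bile acid receptor FXR, read 10.32, 10.61 and 10.87, then 11.68, 12.23 and 12.25 and rose 2.74-fold (adjusted p = 0.00207). Vdr, the vitamin D receptor, read 10.65, 10.91 and 10.76, then 11.32, 11.38 and 11.56 and rose 1.57-fold (adjusted p = 0.00291). Klf15, a glucocorticoid-induced factor of metabolic genes, read 9.04, 8.86 and 8.94, then 9.62, 9.31 and 9.97 and rose 1.6-fold (adjusted p = 0.0129), not called without P8 (adjusted p 0.0535). Tfcp2l1, a factor of the distal nephron and collecting duct, read 13.33, 13.21 and 13.20, then 12.61, 12.42 and 12.54 and was 1.66-fold lower (adjusted p = 0.00127). Ppargc1a and Esrrg, regulators of mitochondrial genes, differed by -0.20 and -0.33 and were not called.

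Genes that answer to glucocorticoid and thyroid hormone had 4 of 9 measured members called higher and 2 lower. Errfi1, an inhibitor of the EGF receptor, read 10.79, 11.09 and 11.03, then 12.29, 12.59 and 13.15, rising at each later age, and was 3.26-fold higher (adjusted p = 0.00159). Fkbp5, a chaperone of the glucocorticoid receptor and one of its best-known targets, read 8.68, 8.59 and 8.68, then 9.55, 10.10 and 10.61 and rose 2.7-fold (adjusted p = 0.00369). Thra, thyroid hormone receptor alpha, read 9.48, 9.42 and 9.60, then 9.01, 8.85 and 8.86 and was 1.51-fold lower (adjusted p = 0.00227). Among 10 measured genes of the growth hormone and IGF axis, 2 were called higher, Ghr and Cish, and 0 lower. The shares over all genes were 18.1% and 23.1%. Ghr, the growth hormone receptor, read 11.76, 11.68 and 11.64, then 12.20, 12.76 and 13.11 and rose 1.99-fold (adjusted p = 0.00872). Cish, a feedback inhibitor induced by that receptor, rose 1.41-fold (adjusted p = 0.0105). Without P20 4 members were called higher.

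Of 10 measured genes of vitamin D, phosphate and calcium control, 4 were called higher and 0 lower. Besides Vdr and Slc34a1 they were Kl, the FGF23 co-receptor klotho, which read 11.53, 11.74 and 11.87, then 12.24, 12.18 and 12.08 and rose 1.37-fold (adjusted p = 0.0112), and the phosphate carrier Slc20a1, at 0.33, a call lost without P30 (adjusted p 0.0513). Of 8 measured clock genes, 2 were called higher and 1 lower, against 18.1% and 23.1% of all genes. Clock rose 1.44-fold (adjusted p = 0.00298). Per2 read 9.19, 9.21 and 9.20, then 9.42, 9.76 and 10.45, highest at P90, and its call (adjusted p = 0.0493) was lost without any 1 of P6, P8, P10 or P30 (adjusted p 0.0944 to 0.121), with a difference of 0.39 without P90. The probe kept for Nr1d1 differed by -0.33 (adjusted p = 0.0102), while its other probes differed by 0.06 to 0.32, the opposite direction. The hour at which the tissue was taken is not given in the sources used here.

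Of 7 measured heat-shock genes, 4 were called higher and 2 lower, against 18.1% and 23.1% of all genes. Hsph1, a disaggregase partner of Hsp70, read 9.95, 9.89 and 9.86, then 11.38, 11.86 and 11.88, all late arrays far above the early ones, and rose 3.5-fold (adjusted p = 0.000528). Hspa5, the chaperone of the endoplasmic reticulum, rose 1.88-fold (adjusted p = 0.00222). Serpinh1, the collagen chaperone, read 13.05, 12.54 and 12.47, then 11.999, 12.10 and 11.12 and was 1.93-fold lower (adjusted p = 0.0274), a call lost without any 1 of P6, P8 or P10 (adjusted p 0.0514 to 0.0933). The small heat-shock protein Cryab was lower by 0.31, lost without any 1 of P6, P8, P10, P30 or P90 (adjusted p 0.0592 to 0.159). Of 8 measured genes of cholesterol synthesis, 3 were called higher and 0 lower. The largest rise was in Cyp51, lanosterol demethylase, which read 10.79, 10.44 and 10.18, then 11.29, 11.97 and 11.51 and rose 2.17-fold (adjusted p = 0.00539). The call on Hmgcs1, which makes the precursor of mevalonate, was lost without P8 or P30 (adjusted p 0.0514 to 0.052), and with P90 left out 5 members were called higher. Of 9 measured immediate early genes, 0 were called higher and 4 lower, among them Egr1, which read 9.15, 9.04 and 9.12, then 8.58, 8.16 and 7.9996 and was 1.81-fold lower (adjusted p = 0.00411). Of 6 measured osmoprotective genes, 1 was called higher and 2 lower, not far from the shares over all genes. Nfat5, the factor that drives them, was 1.49-fold lower (adjusted p = 0.0102), but a second probe for it differed by -0.05.

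**Figure D2:**
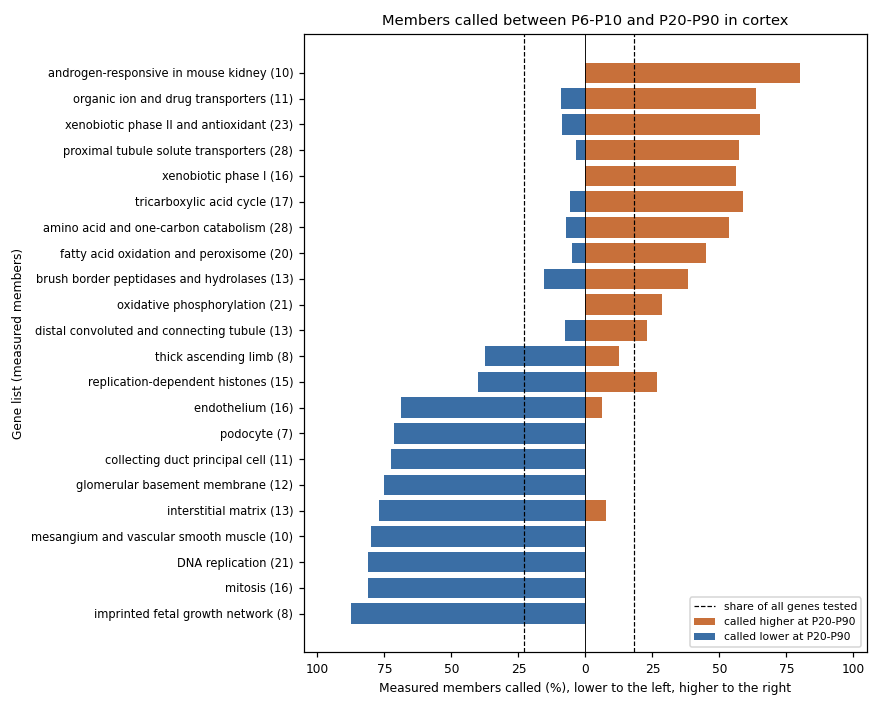
Share of the measured members of each gene list (horizontal axis, percent) called higher (orange, to the right) or lower (blue, to the left) at P20 to P90 than at P6 to P10 in cortex, with the number of measured members in brackets; dashed lines mark the 18.1% of all tested genes called higher and the 23.1% called lower. Transport and metabolic lists lie to the right, and cell cycle, matrix, vessel and imprinted growth lists to the left.

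Igf2, the fetal insulin-like growth factor, had the largest fall and read 12.81, 11.84 and 11.32, then 8.58, 8.31 and 8.49. It fell within the early arrays too, and all late arrays were near the filter. The difference was -3.53 ± 0.33, 11.5-fold lower (adjusted p = 0.000989). Gpc3, a cell-surface proteoglycan that restrains growth, read 12.41, 12.13 and 11.94, then 9.83, 9.07 and 9.13 and was 7.03-fold lower (adjusted p = 0.000537). Nrep, a regulator of TGF-beta signalling in regenerating tissue, read 13.79, 14.05 and 14.05, then 11.97, 10.26 and 9.34, falling at each later age, and was 10.9-fold lower (adjusted p = 0.00396). Fstl1, a secreted BMP antagonist, read 12.70, 12.06 and 11.59, then 9.88, 9.30 and 8.78 and was 6.95-fold lower (adjusted p = 0.00156).

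Of 8 measured genes of the imprinted fetal growth network, 7 were called lower and 0 higher, with a median of -1.58. Cdkn1c, the maternally expressed cyclin-dependent kinase inhibitor, read 12.87, 12.30 and 12.18, then 10.86, 10.07 and 9.77 and was 4.66-fold lower (adjusted p = 0.00207). Ndn, necdin, was 3.74-fold lower, Mest 3.39-fold and Grb10, an adaptor that restrains insulin signalling, 2.63-fold. Igf2r, the receptor that clears Igf2, differed by 0.27 and was not called (adjusted p = 0.0932). Other genes of the largest falls were Vim, the filament protein of mesenchymal cells, which read 12.66, 12.11 and 11.95, then 10.47, 9.84 and 9.83 and was 4.56-fold lower (adjusted p = 0.00109), Basp1 (4.38-fold), the MAGE family member Maged2 (4.35-fold) and the defensin Defb19 (4.85-fold). In bulk tissue, fewer cells of a type and less RNA per cell cannot be told apart.

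Cell division genes fell. Of 16 measured mitosis genes, 13 were called lower and 0 higher, with a median of -0.70, and of 21 measured DNA replication genes 17 were called lower and 0 higher (median -0.65). Cenpa, the histone variant that marks centromeres, read 10.79, 10.63 and 10.72, then 9.57, 9.24 and 8.52. All late arrays were below the early ones and P90 was the lowest, a fall of 3.04-fold (adjusted p = 0.00281). Prc1, which bundles microtubules at the midzone, read 10.59, 10.63 and 10.82, then 10.03, 9.80 and 8.30, and was 2.47-fold lower (adjusted p = 0.0366). Without P90 its difference was -0.76, and its call was lost without any 1 of P6, P8, P10 or P30 (adjusted p 0.0545 to 0.106). Top2a, the topoisomerase of dividing cells, read 9.16, 9.34 and 9.36, then 8.65, 8.47 and 7.83 and was 1.95-fold lower (adjusted p = 0.00832). Cdca3 was 2.04-fold lower (call lost without any 1 of P8, P10 or P30, adjusted p 0.0647 to 0.0835). Nusap1, a spindle protein, was 2.01-fold lower (lost without any 1 of P6, P8, P10 or P30, adjusted p 0.0567 to 0.111), and its difference without P90 was -0.62.

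Mcm4 and Mcm5 are subunits of the helicase that opens replication origins. Mcm4 read 10.72, 10.82 and 10.79, then 9.93, 9.33 and 8.91 and was 2.62-fold lower (adjusted p = 0.00368). Mcm5 read 10.56, 10.57 and 10.76, then 9.97, 9.32 and 8.46, falling at each later age, and was 2.6-fold lower (adjusted p = 0.0145), not called without P10 (adjusted p 0.0528). Mcm6 and Lig1, the DNA ligase of replication, were 1.99-fold and 1.84-fold lower, with calls lost without any 1 of P8, P10 or P30 (adjusted p 0.0577 to 0.0771) and of P8 or P10 (adjusted p 0.0515 to 0.0516). Mcm7 was 1.95-fold lower. Leaving out single arrays, the count of mitosis falls ranged from 5 (without P30, P8 or P10) to 15, and that of DNA replication falls from 7 (without P8 or P10) to 19. With P6 left out 6 mitosis genes were called, and with P30 left out 9 DNA replication genes.

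The fall in these genes was not complete at P20. Called members had reached a median of 29.8% of their fall to P90 in the mitosis list and 36.9% in the DNA replication list, against 68.9% over all 1802 genes called lower. Among 9 measured cell cycle inhibitors and related genes, Cdkn1a, the p53 target p21, read 9.93, 9.73 and 9.40, then 8.79, 8.90 and 8.39 and was 1.99-fold lower (adjusted p = 0.00449). Ccng1 and Gadd45g were called higher, at 0.65 and 0.72, as was Cdkn2c, at 0.33, a call lost without any 1 of P6, P8, P30 or P90 (adjusted p 0.0584 to 0.129).

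The promoters of Cenpa and Mcm5 are shown because the mitosis and the DNA replication lists differ in how often they hold the motifs searched in this window. In Cenpa, chr5:30666636-30666935 on the plus strand (GRCm38.p6, RefSeq), capitals mark CCAAT (the CCAAT box) and TTTGAA (the cell cycle homology region) on either strand. In Mcm5, chr8:75109259-75109558 on the plus strand, capitals mark TTGGCGC or TTCCCGC (E2F) on either strand. The Mcm5 sequence also holds CCAAT, which is left in lower case there.
Cenpa: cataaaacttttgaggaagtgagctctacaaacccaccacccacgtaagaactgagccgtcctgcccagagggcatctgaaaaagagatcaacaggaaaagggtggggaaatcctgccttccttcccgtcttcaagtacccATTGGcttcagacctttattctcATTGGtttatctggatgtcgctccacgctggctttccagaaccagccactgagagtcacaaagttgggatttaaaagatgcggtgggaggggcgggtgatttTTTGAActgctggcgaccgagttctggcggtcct
Mcm5: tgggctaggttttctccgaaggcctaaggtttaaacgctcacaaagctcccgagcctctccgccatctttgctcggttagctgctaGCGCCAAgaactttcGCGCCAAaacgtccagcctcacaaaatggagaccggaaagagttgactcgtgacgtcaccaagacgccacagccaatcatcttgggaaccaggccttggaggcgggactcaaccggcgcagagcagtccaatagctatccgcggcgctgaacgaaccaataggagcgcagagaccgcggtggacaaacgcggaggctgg
Of 23 promoters of 22 mitosis genes, 91.3% held CCAAT and 78.3% TTTGAA, against 37.4% and 17.9% of all 32851 promoters. An E2F motif was in 13% of mitosis promoters and in 52% of the 25 promoters of 21 DNA replication genes, against 6.81% of all promoters. DNA replication promoters held CCAAT in 52% and TTTGAA in 12%. A CCAAT box can share letters with TTGGCGC where they adjoin. For the mitosis genes called lower, the shares were 84.6% for CCAAT and 76.9% for TTTGAA over 13 promoters.

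Histone genes moved both ways. Of 15 measured replication-dependent histone genes, 6 were called lower and 4 higher. H2ac23, an H2A gene, read 12.29, 12.72 and 12.98, then 10.75, 10.09 and 9.16, falling at each later age, and was 6.33-fold lower (adjusted p = 0.0024). H2ac6, H2ac13, H2ac12 and H2ac15 were 5.86-fold, 5.82-fold, 5.76-fold and 5.06-fold lower, and H2ac22 was the sixth gene called lower, at -0.55, a call lost without any 1 of P8, P10, P20 or P90 (adjusted p 0.0721 to 0.136). The members called higher were H2B genes, H2bc4, H2bc7, H2bc9 and H2bc11, at 0.50, 0.91, 0.82 and 1.02, and the call on H2bc4 was lost without any 1 of P6, P8, P10, P30 or P90 (adjusted p 0.0535 to 0.104). Replication-dependent histone genes are near copies of one another in sequence, so single members are uncertain.

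**Figure D3:**
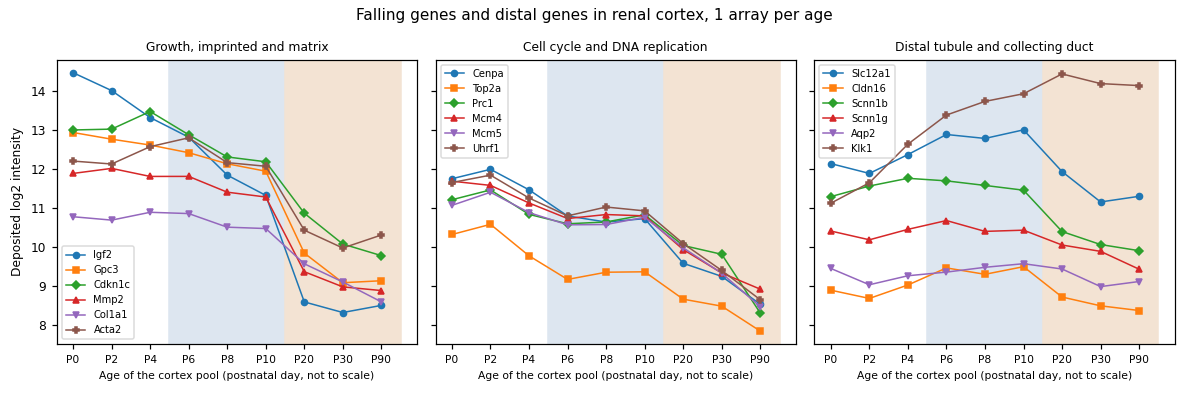
Deposited log2 intensity (vertical axis) at the 9 ages (horizontal axis, equally spaced, not to scale) for growth, imprinted and matrix genes (left), cell cycle and DNA replication genes (middle) and genes of the distal tubule and collecting duct (right), 1 array per point; shading marks P6 to P10 in blue and P20 to P90 in orange. Igf2 reads 8.58 at P20 and 8.49 at P90, whereas Mcm5 reads 9.97 at P20 and 8.46 at P90.

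Extracellular matrix genes fell widely. Of 13 measured genes of the interstitial matrix, 10 were called lower and 1 higher (median -1.22). Mmp2, gelatinase A, which remodels collagen, read 11.80, 11.40 and 11.27, then 9.36, 8.97 and 8.87 and was 5.37-fold lower (adjusted p = 0.00045). Col6a1, a collagen VI chain, read 11.60, 11.21 and 11.09, then 10.17, 9.46 and 8.93 and was 3.43-fold lower (adjusted p = 0.00387). Col1a1, the main fibrillar collagen, read 10.85, 10.50 and 10.47, then 9.56, 9.09 and 8.58 and was 2.88-fold lower (adjusted p = 0.00312). In both collagens the level fell at each later age. Lox, which crosslinks collagen, was 2.73-fold lower. Timp3, a matrix-bound inhibitor of metalloproteases, went the other way. It read 12.17, 12.14 and 12.03, then 13.66, 13.998 and 13.84 and rose 3.3-fold (adjusted p = 0.00033).

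Of 12 measured genes of the glomerular and tubular basement membrane, 9 were called lower and 0 higher (median -0.94). Col4a1, a collagen IV chain of all basement membranes, read 13.58, 13.48 and 13.63, then 12.56, 12.18 and 10.95 and was 3.17-fold lower (adjusted p = 0.0104), with the largest step between P30 and P90. Agrn, agrin, read 12.88, 12.42 and 12.38, then 11.07, 10.86 and 10.76 and was 3.16-fold lower (adjusted p = 0.000871). Hspg2, perlecan, was 2.91-fold lower, Nid1, nidogen, 2.61-fold and the laminin chain Lamc1 2.52-fold. Col4a3, Col4a4 and Col4a5, whose chains form the collagen network of the mature glomerular basement membrane, were not called, with differences of 0.44, 0.42 and -0.60 (adjusted p = 0.0608, 0.282 and 0.204).

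Vessel, mesangial and podocyte genes fell in most cases. Of 16 measured endothelial genes, 11 were called lower and 1 higher (median -0.63), though 6 were lower without P30. The gene called higher, Ehd3, differed by 0.23 and was called under none of the single arrays left out (adjusted p 0.0522 to 0.122). Cldn5, the tight-junction claudin of endothelium, read 10.72, 10.25 and 10.09, then 8.85, 8.63 and 8.63 and was 3.15-fold lower (adjusted p = 0.001). Egfl7, a secreted endothelial factor, read 11.03, 11.03 and 11.25, then 10.10, 9.79 and 9.65 and was 2.39-fold lower (adjusted p = 0.00102). Esam and Cdh5, junction proteins, were 1.95-fold and 1.87-fold lower. Plat, tissue plasminogen activator, was 1.77-fold lower, a call lost without P30 (adjusted p 0.0686). Of 10 measured genes of mesangium and vascular smooth muscle, 8 were called lower and 0 higher. Acta2, smooth muscle actin, read 12.79, 12.16 and 12.06, then 10.42, 9.97 and 10.30 and was 4.31-fold lower (adjusted p = 0.001). Pdgfra, a receptor of fibroblasts and stroma, read 11.20, 10.63 and 10.73, then 9.56, 8.95 and 9.03 and was 3.19-fold lower (adjusted p = 0.00158). The pericyte regulator Rgs5, at or below the filter on all late arrays, was at least 1.22-fold lower.

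Of 7 measured podocyte genes, 5 were called lower and 0 higher (median -0.68), with 5 lower under every array left out. Wt1, the podocyte transcription factor, read 10.73, 9.88 and 9.69, then 9.02, 8.65 and 8.58, falling within the early arrays as well, and was 2.56-fold lower (adjusted p = 0.00681). Podxl, the sialoprotein podocalyxin of foot processes, read 12.51, 12.13 and 11.80, then 11.41, 10.88 and 10.72 and was 2.21-fold lower (adjusted p = 0.00701). Synpo, synaptopodin, read 11.80, 12.09 and 12.02, then 11.43, 10.98 and 10.84 and was 1.84-fold lower (adjusted p = 0.00504). Nphs1 differed by -0.21 and was not called (adjusted p = 0.0816). Of 4 measured genes of the renin-angiotensin system 0 were called, the smallest p being that of the angiotensin receptor gene Agtr1a, at -0.20 (adjusted p = 0.17). Renin (Ren1) was not analysed here.

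Of 8 measured genes of the thick ascending limb, 3 were called lower and 1, Egf, higher, against 23.1% and 18.1% of all genes. Slc12a1, the sodium potassium chloride cotransporter that furosemide blocks, read 12.88, 12.78 and 12.997, then 11.93, 11.15 and 11.29. All late arrays were below the early ones, 2.69-fold on average (adjusted p = 0.00216), and a second probe differed by -1.32. Cldn16, the claudin of magnesium and calcium reabsorption, read 9.45, 9.29 and 9.49, then 8.71, 8.48 and 8.36 and was 1.86-fold lower (adjusted p = 0.00153). Bsnd, barttin, the chloride channel subunit, read 11.35, 11.26 and 11.39, then 10.996, 10.55 and 10.31 and was 1.64-fold lower (adjusted p = 0.012). Umod, uromodulin, the protein most typical of that segment, read 11.05, 11.27 and 11.47, then 11.71, 11.29 and 11.55 and was not called (difference 0.25, adjusted p = 0.186).

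In the list for the distal convoluted tubule and the connecting tubule, 3 of 13 measured genes were called higher and 1 lower. Over all genes the shares were 18.1% and 23.1%. Klk1, tissue kallikrein, read 13.38, 13.73 and 13.92, then 14.43, 14.18 and 14.13 and rose 1.49-fold (adjusted p = 0.0194), a call lost without P8 or P30 (adjusted p 0.0519 to 0.0562). Kcnj16, a potassium channel subunit, rose 1.59-fold, lost without any 1 of P6, P8, P10 or P30 (adjusted p 0.0554 to 0.0823), and Cnnm2, a magnesium transport gene, 1.2-fold, lost without any 1 of P6, P10 or P30 (adjusted p 0.0664 to 0.0897). The count of rises was 0 without P30 and 1 without P6, P8 or P10, and 4 members were called lower without P20. Stk39, the kinase SPAK that switches on salt cotransporters, read 10.18, 9.98 and 10.06, then 9.61, 9.25 and 9.23 and was 1.64-fold lower (adjusted p = 0.00389). Slc12a3, the thiazide-sensitive cotransporter, differed by -0.31 and was not called (adjusted p = 0.266).

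Of 11 measured genes of principal cells, 8 were called lower and 0 higher (median -0.36), with 5 lower without P30 or without P8. Scnn1b and Scnn1g are subunits of the epithelial sodium channel that aldosterone controls. Scnn1b read 11.69, 11.57 and 11.45, then 10.39, 10.05 and 9.90 and was 2.74-fold lower (adjusted p = 0.000881). Scnn1g read 10.67, 10.39 and 10.42, then 10.04, 9.88 and 9.42 and was 1.64-fold lower (adjusted p = 0.0122). The alpha subunit gene Scnn1a differed by 0.24 and was not called (adjusted p = 0.374). Aqp2, the vasopressin-regulated water channel, differed by -0.29 and was not called (adjusted p = 0.0994). St6gal1, a sialyltransferase, was 2.18-fold lower. Fxyd4, a regulator of the sodium pump, was 1.5-fold lower, and a second probe for it differed by -0.15.

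Of 9 measured genes of intercalated cells, 3 were called lower and 1 higher, against 23.1% and 18.1% of all genes. Atp6v1b1, a subunit of the proton pump, read 9.35, 9.24 and 9.52, then 8.92, 8.54 and 8.69 and was 1.57-fold lower (adjusted p = 0.00517). Car15, a membrane carbonic anhydrase, was 1.58-fold lower and Rhcg, an ammonia channel, 1.36-fold, calls lost without any 1 of P8, P10, P30 or P90 (adjusted p 0.0977 to 0.14) and of P8, P10, P30 or P90 (adjusted p 0.0802 to 0.114). Slc26a4, the chloride bicarbonate exchanger pendrin, was 1.27-fold higher, lost without any 1 of P6, P8, P10, P20 or P90 (adjusted p 0.0676 to 0.127). The count of falls was 1 without P30, P90, P8 or P10 and 5 without P20.

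Genes of the nephron-forming zone were mostly dim here. In the nephron progenitor list 5 of 14 genes were measured, and the call was on Itga8, an integrin of the mesenchyme, at least 1.18-fold lower (adjusted p = 0.012). Of 6 measured genes of committing nephrons, Cdh6 was at least 1.23-fold lower (adjusted p = 0.0122) and Pax8 1.21-fold higher, a call lost without any 1 of P8, P10, P30 or P90 (adjusted p 0.0535 to 0.0982). The guidance factor Slit2 was 1.81-fold lower (adjusted p = 0.00396) among 4 measured genes of the ureteric tip. Of 4 measured genes of stromal progenitors, 3 were called lower and 1 higher. Meis1 was 1.63-fold lower. Dcn, the proteoglycan decorin, read 11.76, 11.25 and 11.28, then 9.65, 10.30 and 10.79, lowest at P20, and was 2.27-fold lower (adjusted p = 0.0133), not called without P6 (adjusted p 0.0512). Smoc2 was 1.47-fold lower (lost without any 1 of P6, P8, P10 or P30, adjusted p 0.0531 to 0.0916) and Ntn1 1.31-fold higher (lost without any 1 of P6, P8, P10, P30 or P90, adjusted p 0.071 to 0.138). With no P6 array 1 of the 4 was called lower.

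Of 8 measured developmental transcription and RNA-binding factors, 7 were called lower and 0 higher (median -0.89). Uhrf1, which carries DNA methylation through replication, read 10.79, 11.02 and 10.92, then 10.08, 9.39 and 8.64 and was 2.91-fold lower (adjusted p = 0.00832). Sox12, a SoxC factor, read 11.18, 10.999 and 10.88, then 9.70, 9.70 and 9.27 and was 2.76-fold lower (adjusted p = 0.001). Tead2 and the DNA methyltransferase Dnmt3b were 2.23-fold and 2.08-fold lower. Sox11, at or below the filter on all late arrays, was at least 1.42-fold lower. Igf2bp1 and Igf2bp3 are RNA-binding proteins of fetal tissues. Igf2bp3, dim on all late arrays, was at least 1.19-fold lower (adjusted p = 0.00607). Igf2bp1 was lower by 0.28 on the log2 scale (adjusted p = 0.0187), a call lost without any 1 of P6, P8 or P30 (adjusted p 0.0529 to 0.0685).

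Of 7 measured genes of MHC class II presentation, 2 were called higher and 1 lower. Over all genes, 18.1% were called higher and 23.1% lower. Cd74, the invariant chain, read 8.89, 8.80 and 8.76, then 9.67, 9.996 and 10.54, rising at each later age, and was 2.38-fold higher (adjusted p = 0.00344). H2-Eb1 was at least 1.25-fold higher (adjusted p = 0.00478), and H2-DMb1 1.76-fold lower, a call lost without P8 or P30 (adjusted p 0.0548 to 0.0628). Of 13 measured genes of MHC class I and interferon response, 5 were called higher and 0 lower. H2-K1, a class I heavy chain, read 8.29, 8.27 and 8.28, then 8.80, 8.82 and 9.03 and was at least 1.47-fold higher (adjusted p = 0.00222). That count was 3 without P30, P6 or P8.

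Of 8 measured macrophage genes the call was on Cd14, the lipopolysaccharide co-receptor, at 0.34 (lost without any 1 of P6, P8, P10, P30 or P90, adjusted p 0.0608 to 0.125), and 0.22 without P90. Adgre1, the F4/80 antigen, and C1qa differed by 0.11 and 0.19 and were not called. In the lymphocyte and plasma cell list the 1 measured gene of 10 on the array was Pigr, the epithelial receptor that carries antibodies, which read 8.26, 8.29 and 8.38, then 8.80, 8.75 and 9.73. P90 was its highest array. Its rise of 1.72-fold (adjusted p = 0.0362) was lost without any 1 of P6, P8 or P10 (adjusted p 0.0816 to 0.102) and was 0.46 on the log2 scale without P90. Of 6 measured complement genes, 4 were called lower and 1 higher. Cfi, the protease that inactivates C3b, read 10.002, 9.79 and 9.73, then 8.52, 8.39 and 8.18 and was 2.79-fold lower (adjusted p = 0.000537). Cfb, factor B of the alternative pathway, read 9.99, 10.30 and 10.29, then 10.68, 10.92 and 11.92 and was 1.97-fold higher (adjusted p = 0.0325), a call lost without any 1 of P6, P8, P10 or P30 (adjusted p 0.0578 to 0.106) and a difference of 0.61 without P90.

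Markers of neighbouring tissues were checked on the same arrays. Ucp1, which uncouples respiration in brown adipocytes, read 10.67, 9.53 and 11.57, then 8.64, 9.53 and 8.69, highest at P10 and P6, and was called 3.11-fold lower (adjusted p = 0.0313), a call lost without any 1 of P6, P10 or P90 (adjusted p 0.0694 to 0.0901). Of 9 brown fat and adipocyte genes on the array, 4 read above the filter on any of the 6 arrays and 3 were measured. Cidea, above the filter at P6 and P10 only and so not measured, read 8.52, 8.16 and 8.51, then 8.02, 8.26 and 8.20. Cox8b read 8.67, 8.15 and 9.27, then 8.40, 8.65 and 8.61 and Adipoq 8.65, 8.19 and 8.56, then 8.48, 8.66 and 8.57, with no call on either, and Fabp4 was at or below the filter on all 6. The summed level of the list was 11.50 to 12.49 on the log2 scale at P6 to P10 and 11.37 to 11.70 at P20 to P90. The haemoglobin gene Hba-a1 read 14.24, 14.38 and 14.53, then 14.92, 14.61 and 14.16 and the red cell gene Alas2 9.23, 9.44 and 9.54, then 10.22, 9.995 and 9.32, both highest at P20 and neither called. Krt7, a keratin of urothelium and collecting duct, read 11.68, 11.58 and 11.75, then 11.11, 10.56 and 10.69 and was 1.85-fold lower (adjusted p = 0.00353), whereas Upk2, a uroplakin, was above the filter on 2 of the 6 arrays. Pvalb, parvalbumin, the 1 measured gene of the skeletal muscle list and also made in the distal tubule, read 12.18, 12.83 and 12.93, then 13.23, 12.65 and 12.43 and was not called (adjusted p = 0.718). None of the 4 measured genes of the liver list was called. Their part in the results was not tested.

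As P6 and P10 carried the highest Ucp1, the comparison was also run, as a choice made after seeing the data, without both arrays, with the 3 cortex arrays of P0 to P4 kept in the fit as a further group. P8 alone then stood for the early period and was assumed to vary like the other groups, and 1032 genes were called. With 1 early array the spread within that period is not measured, so no counts per gene list are given from this fit.

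**Figure D4:**
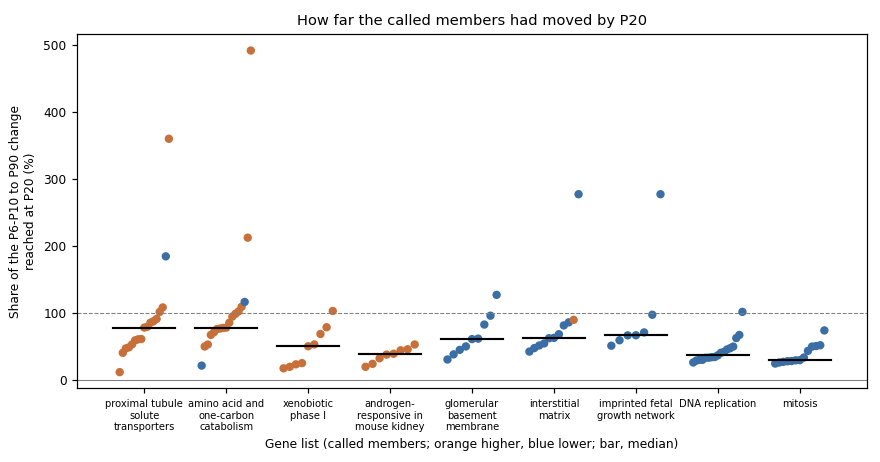
Share of the change from the P6 to P10 mean to P90 that was present on the P20 array (vertical axis, percent) for each called member of 9 gene lists (horizontal axis), orange for members called higher and blue for members called lower, with a bar at the median; 100% means that P20 equals P90 and values above it that P20 went past P90. Medians are 38.6% in the androgen-responsive list, 36.9% in DNA replication and 29.8% in mitosis, and 78.3% in the proximal tubule transporter list.

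Most of the larger changes had the same direction in the medulla at the same ages. Of the 385 genes called at least 2-fold in cortex, 383 differed in the same direction in medulla. Each region has its own array at each age. A test of the difference between the cortex change and the medulla change over 12 arrays called 44 of 7813 genes (0.563%), 25 with the cortex change higher and 19 with it lower. With age as a block, 819 were called (10.5%), the 44 among them. Of the 385 genes, 9 were called in the first fit and 95 in the blocked one. Among proximal tubule transporters, 1 gene was called for the difference, and 9 with the block. The median change of that list was 0.50 in cortex and 0.90 in medulla. Slc34a1 of the proximal tubule read high in the medulla arrays too. How much proximal tubule those samples held was not tested.

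Slc12a1 differed most in the downward direction. In medulla it read 12.90, 13.12 and 13.29, then 13.54, 13.15 and 13.26, where the periods overlapped and the mean differed by 0.22, against -1.43 in cortex, and the difference was -1.64 (95% interval -2.21 to -1.08, adjusted p = 0.0219). Slc22a19 read 8.84, 8.78 and 8.59, then 9.57, 10.19 and 10.002 in medulla, a rise of 1.18 against -0.37 in cortex (difference -1.56, interval -2.05 to -1.07). Slc23a3, a nucleobase transporter family member, read 10.40, 10.01 and 9.97, then 9.69, 9.41 and 9.25 in cortex and 9.83, 10.13 and 10.01, then 10.92, 10.66 and 10.59 in medulla (difference -1.41, interval -1.87 to -0.96). Slc6a18, a glycine transporter of the straight proximal tubule, read 11.95, 11.82 and 11.65, then 11.86, 11.67 and 11.64 in cortex, with no call, and 11.13, 11.55 and 11.22, then 12.28, 12.19 and 12.22 in medulla (difference -1.01). Its other probe differed by 0.36 in cortex, the opposite direction.

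In the upward direction, the medulla fell where no change was called in cortex for Cxcl14, Thy1 and Pfn2. In cortex, Cxcl14 and Thy1 already lay near the filter (8.31 to 8.37) at P6 to P10. A fall as large as that in medulla could therefore not be measured there. Cxcl14, a chemokine, read 8.45, 8.27 and 8.68, then 8.27, 8.27 and 8.42 in cortex and 11.25, 11.24 and 11.21, then 9.27, 8.73 and 8.89 in medulla, so the medulla came down towards the cortex level (difference 2.12, interval 1.71 to 2.53, adjusted p = 0.000624). Thy1, a surface antigen of fibroblasts and T cells, read 9.23, 8.59 and 8.67, then 8.45, 7.94 and 8.55 in cortex and 10.92, 11.03 and 10.69, then 8.36, 8.19 and 8.13 in medulla (difference 2.14, interval 1.56 to 2.71). Pfn2, profilin 2, read 11.63, 11.43 and 11.54, then 11.45, 11.44 and 11.34 in cortex and 12.78, 12.87 and 12.73, then 11.49, 11.25 and 11.38 in medulla (difference 1.30, interval 1.05 to 1.54). Htra3, a secreted protease, was at least 2-fold lower in cortex, and its difference in medulla was -3.16 on the log2 scale. Psat1, of serine synthesis, read 9.22, 9.62 and 9.62, then 10.32, 10.52 and 10.22 in cortex and 11.16, 10.80 and 10.84, then 10.73, 10.50 and 9.96 in medulla (difference 1.41), but a second probe differed by 0.07 in cortex.

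Cfi fell by 1.48 in cortex and differed by -0.57 in medulla (difference -0.91). Among members of the metabolic lists, Gldc, dim on the early arrays, differed by 2.12 in cortex and by 1.16 in medulla on the deposited scale (difference 0.96, interval 0.73 to 1.19). Sult1d1 rose by 1.32 in cortex and 2.01 in medulla. Tfcp2l1 fell by 0.73 in cortex and differed by -0.12 in medulla. Leaving out each of the 12 arrays in turn, Thy1, Cxcl14, Pfn2 and Gldc were called every time, though Thy1 and Cxcl14 were near the filter in cortex. Slc22a19 lost its call in 1 of 12, Slc23a3 in 2, Slc12a1, Slc6a18 and Cfi in 6 each, Sult1d1 in 7, Htra3 in 8, Tfcp2l1 in 10 and Psat1 in 11.

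**Figure D5:**
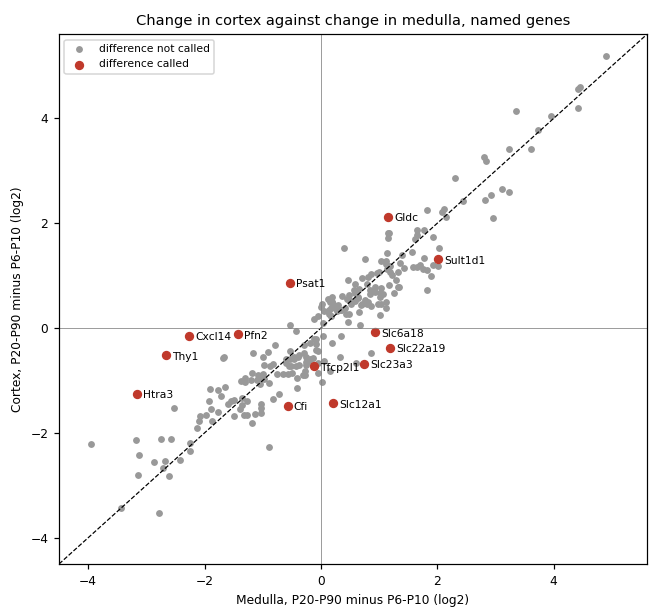
Change from P6 to P10 to P20 to P90 in cortex (vertical axis, log2) against the change in medulla (horizontal axis, log2) for 257 genes, those chosen by the naming rule and those named besides it, with the 13 whose difference between regions was called in red and labelled; the dashed line marks equal change. Most genes lie near the line, and Slc12a1 lies below it with -1.43 in cortex and 0.22 in medulla.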

How the data were processed

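The authors deposited normalised log2 intensities of 46630 probes on 18 Illumina arrays, 1 array per age and region, each from RNA of 4 pooled animals. Per the series' design text the values were made with lumi and limma, while the background correction, the normalisation and whether the log2 is plain or variance-stabilised are not given in the sources used here. RNA was extracted on columns and labelled as biotinylated cRNA, per the labels' protocols. The scanner table was not used, because its 36 value columns carry headers that match no label.

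A symbol was given by the platform annotation for 29975 probes (17711 genes), while 10 probes had several and 16645 none. Probes above their array's 75th percentile on at least 3 of the 6 arrays were kept (9735), and the brightest kept probe stood for each of 7813 genes. Differences were tested in R 4.3.3 with limma 3.58.1 (linear fit and empirical Bayes) on the 6 arrays, with Benjamini-Hochberg adjustment over all 7813 genes and a call at an adjusted p under 0.05. An adjusted p in the text is from this fit, unless it is given for a left-out array or for the difference between regions. The difference between the cortex change and the medulla change was fitted on 12 arrays. The number of arrays limits the precision, and p-values measure the spread between ages, each 1 array.

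Deviations from the group means of cortex and medulla arrays of 1 age correlated at 0.141 to 0.747 over the 6 ages, so age pairs the regions, and the fit with age as a block is given beside the other. A level at or below the filter on every array of a group was treated as a bound. For array values at the bound, the higher of the array's filter and the probe's own value stood for the dim group.

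The ages compared and the gene lists were chosen with earlier results of these data known. Named were the 15 largest called differences each way without overlap, the 6 largest called differences each way between P90 and P20, the 5 largest each way for the difference from medulla, and up to 5 called members of each list. Genes outside this rule, such as Slc5a2, Umod, Nphs1, Aqp2, Hba-a1 and the smaller list members, were named after their values were seen. Alternatives were other filters, probe rules, scalings, variance models, sets of arrays and leaving out each array. The scripts were tested on simulated data. Promoter sequences are from RefSeq. Lrp2, Cubn and Ren1 were not analysed here.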

Additional observations from a re-analysis of the deposited data

Results flagged for a closer look

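Each result here was picked out because the change from P6 to P10 to P20 to P90 differed between cortex and medulla by a test of that difference (limma over 12 arrays, Benjamini-Hochberg adjusted over 7813 genes). No explanation was tested for any of them.

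Lower in cortex relative to medulla were Slc12a1, with a difference between the changes of -1.64 (adjusted p = 0.0219), Slc22a19 with -1.56 (0.0176), Slc23a3 with -1.41 (0.0176) and Slc6a18 with -1.01 (0.0219). Cfi had -0.91 (0.0219), Sult1d1 -0.70 (0.0219) and Tfcp2l1 -0.61 (0.0315).

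Higher in cortex relative to medulla were Thy1, with 2.14 (0.00641), Cxcl14 with 2.12 (0.000624), Htra3 with 1.91 (0.0326), Psat1 with 1.41 (0.0417), Pfn2 with 1.30 (0.000624) and Gldc with 0.96 (0.00316). With each of the 12 arrays left out in turn, the difference ranged from -1.88 to -1.49 for Slc12a1, from 2.02 to 2.33 for Thy1 and from 0.91 to 1.02 for Gldc. The adjusted p of Slc12a1 passed in 6 of those 12 fits. Thy1 and Cxcl14 lay near the filter in cortex, which limits how far they could fall there.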

How the results depend on the processing

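Of 3217 genes called in the 6 cortex arrays, leaving out 1 array gave 1958 to 3537, array weights gave 4942, and leaving out P6 and P10, chosen after seeing the data, gave 1032. Filters, probe rules, scaling, a variance trend and fits on 9 or 18 arrays gave 2561 to 3643. Setting the median over the tested genes equal on each array moved the share of calls that were higher from 44.0% to 53.8%. For the difference between regions, 44 genes were called. No filter gave 67, a filter on 3 of all 18 arrays 78, the 85th percentile 23, array weights 1516, and leaving out 1 array 10 to 273. With age as a replicate block, the pairing of cortex and medulla arrays by age, 819 were called.

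Of 3564 tests of the 211 called genes under other settings, 3242 kept direction and call, 321 lost the call and 1 reversed. That was Nr1d1, at 0.0181 as the mean of its kept probes. Of genes not called, Slc6a18 was 0.140 as the mean of its kept probes and Cxcl14 0.0462 without P6 and P10. Pvalb was -0.109 to 0.294 with 1 array left out, below 0 without P6 (-0.109) and without P20 (-0.104), -0.0703 with array weights and -0.0566 without P6 and P10. The causes were not tested. Dim probes near the filter limit what can be said of nephron progenitor and immune genes.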

Other observations

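A small set of genes was highest at P20, the array nearest to weaning. These were chosen after their values were seen, have no replicate at that age, and carry no test. In 14 genes P20 exceeded each of the other 5 cortex arrays by at least 0.5 on the log2 scale, and in 4 it was lower than all of them by that much. Rdh16f2, a retinol dehydrogenase family member, read 8.57, 8.91 and 8.88, then 12.25, 11.004 and 9.91 (P6, P8 and P10, then P20, P30 and P90). The medulla arrays of P20, P30 and P90 read 11.60, 10.56 and 9.85, the same order. Dio1, the deiodinase that activates thyroid hormone, read 8.46, 8.86 and 8.998, then 10.13, 9.03 and 8.28 in cortex and 9.83, 9.03 and 8.44 at the 3 later ages in medulla.

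Cyp4a14, a fatty acid hydroxylase induced by PPAR alpha in mouse liver, read 10.89, 11.64 and 11.86, then 12.55, 10.72 and 8.50 in cortex and 12.61, 11.25 and 8.48 at the later ages in medulla. In both regions the level at P90 was the lowest of these. Kynu, kynureninase, read 8.78, 8.77 and 8.69, then 9.53, 8.29 and 7.97, opposite in order after P20 to its pathway neighbour Haao. Brms1l read 9.55, 9.90 and 10.13, then 11.29, 9.33 and 9.14 in cortex, with no such peak in medulla, where it read 9.46, 9.40 and 9.12. Cyp2d26 read 10.50, 10.54 and 10.85, then 11.46, 10.27 and 10.01. Among the 4 genes lowest at P20 was the brush-border peptidase gene Ace, which read 10.12, 9.74 and 9.54, then 8.96, 10.04 and 10.54.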
